A study of Homo sapiens with 12 samples.

Results

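The myomiRs examined here were the muscle-enriched miRNAs hsa-miR-1-3p, hsa-miR-133a-3p, hsa-miR-133a-5p, hsa-miR-133b and hsa-miR-206, chosen by name as the rows of these families that the miRNA table held, 5 of its 1133 rows. They were measured by small RNA sequencing of extracellular vesicles (EV) that cells of the human induced pluripotent stem cell (hiPSC) line iPS(IMR90)-4 released into culture medium along cardiomyocyte differentiation. The 4 EV groups were hiPSC-EV from undifferentiated cells (day 0, TeSR-E8 medium conditioned for 24 h), CPC-EV from cardiac progenitor cells (day 6, RPMI with insulin-free B27 after Wnt activation and inhibition, 72 h), CMi-EV from immature cardiomyocytes (day 15, 3D aggregates in RPMI with B27, 48 h) and CMm-EV from more mature cardiomyocytes (day 35, 3D aggregates after glucose-free maturation medium with galactose and fatty acids, 48 h). Each group had 3 EV preparations from independent cultures, so that all 12 libraries came from 1 line, and medium, culture format and conditioning time changed together with the stage and cannot be told apart from it. The data are of vesicles and not of the cells, and within a group a smaller share of vesicles from one cell type and less of a miRNA per vesicle cannot be told apart.

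miR-1, miR-133 and miR-206 are the classical muscle miRNAs. miR-1 and miR-133a are transcribed together from paired loci under the control of muscle transcription factors such as SRF, MEF2 and myocardin, and are abundant in the heart and in skeletal muscle, whereas miR-206 and miR-133b come from a separate locus that is used mainly in skeletal muscle. A miRNA recognises its targets largely through its seed, the bases at positions 2 to 8 from the 5′ end, so members with the same seed share many predicted targets.

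The mature sequences of all 5 members are shown because the seeds divide them into 3 families, and because single bases separate members that are counted apart (5′ to 3′, seed in capitals, from RefSeq on GRCh38.p14, in which 965 of the 1133 rows were matched by name).
hsa-miR-1-3p: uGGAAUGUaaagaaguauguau
hsa-miR-206: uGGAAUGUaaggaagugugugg
hsa-miR-133a-3p: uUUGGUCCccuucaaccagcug
hsa-miR-133b: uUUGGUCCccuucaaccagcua
hsa-miR-133a-5p: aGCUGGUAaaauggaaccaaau
hsa-miR-1-3p and hsa-miR-206 shared the seed GGAAUGU and 18 of 22 bases. Counted from the 5′ end, with the base of miR-1-3p first, they differed by A11G, A17G, A21G and U22G. hsa-miR-133a-3p and hsa-miR-133b shared the seed UUGGUCC and 21 of 22 bases, and the single difference, G22A, was the last base. A read of this pair that stopped short of that base could not be assigned to either one, and both members held expected counts that were not whole numbers in 5 libraries each, against none for the other members. The passenger arm hsa-miR-133a-5p had a seed of its own, GCUGGUA.

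The precursors lie at 3 places in the genome (GRCh38.p14, annotation of GENCODE v44). On chromosome 20, MIR1-1 (chr20:62554306-62554376, plus strand) lies in an intron of the lncRNA gene MIR1-1HG, and MIR133A2 (chr20:62564912-62565013, plus strand), 10535 bases further on, overlaps an exon of the same gene. On chromosome 18, MIR133A1 (chr18:21825698-21825785, minus strand) and MIR1-2 (chr18:21829004-21829088, minus strand) are separated by 3218 bases, overlap exons of the lncRNA gene MIR133A1HG and lie on the strand opposite to an intron of the ubiquitin ligase gene MIB1. The chromosome 6 locus holds MIR133B (chr6:52148923-52149041, plus strand), opposite to an intron of the lncRNA gene LINCMD1, and the mature hsa-miR-206 sequence (chr6:52144401-52144422, plus strand). The mature miR-1-3p and both arms of miR-133a are identical from their 2 loci, so the counts cannot be divided between chromosomes 18 and 20.

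Levels are given as CPM, the miRNA count divided by the library total in units of 1e+06 and scaled by the trimmed mean of M values (TMM). Libraries held 703415 to 6272455 miRNA counts, and 3 counts, taken as the floor of detection, corresponded to 0.640 to 3.64 CPM, so the low members were resolved less well in the shallow libraries. The stage labels were compared with marker lists of these libraries. Summed over 4 cardiomyocyte miRNAs (miR-208a-3p, miR-208b-3p, miR-499a-5p and miR-490-3p), the level was 0 to 2.56 CPM in hiPSC-EV, 0 to 38.7 in CPC-EV, 1108 to 1710 in CMi-EV and 1600 to 2549 in CMm-EV. The 7 pluripotency miRNAs summed to 172070 to 210390 CPM in hiPSC-EV, 48623 to 78804 in CPC-EV, 4001 to 6727 in CMi-EV and 110 to 302 in CMm-EV. Most of this sum was miR-302b-3p (mean 178903 CPM in hiPSC-EV). The means of miR-372-3p and miR-373-3p were higher in CPC-EV (258 and 39.1 CPM) than in hiPSC-EV (177 and 23.2), with overlapping ranges. Those of the other pluripotency miRNAs were lower. Markers of other cell types moved as well. The 4 endoderm miRNAs summed to 1302 to 2251 CPM in hiPSC-EV, 6304 to 8865 in CPC-EV, 3470 to 7218 in CMi-EV and 2243 to 4459 in CMm-EV, and they did not move alike. miR-122-5p was at 0 to 1.28 CPM in hiPSC-EV, 469 to 1227 in CPC-EV, 269 to 2012 in CMi-EV and 269 to 1303 in CMm-EV. miR-375-3p was at 25.5 to 102 CPM in hiPSC-EV, 2834 to 4838 in CPC-EV, 233 to 603 in CMi-EV and 3.18 to 29.2 in CMm-EV. miR-192-5p was at 1220 to 2099 CPM in hiPSC-EV, 2015 to 2877 in CPC-EV, 2529 to 4675 in CMi-EV and 1894 to 3108 in CMm-EV. miR-194-5p was at 55.7 to 75.9 CPM in hiPSC-EV, 44.5 to 115 in CPC-EV, 27.8 to 298 in CMi-EV and 18.5 to 93.5 in CMm-EV. Blood miRNAs, nearly all of them miR-486-5p, summed to 5307 to 8684 CPM in hiPSC-EV and 728 to 2082 in the other groups, and the 2 endothelial miRNAs summed to 76.6 to 115 CPM in hiPSC-EV and averaged 15.8 in CMm-EV. The 2 smooth muscle and mural miRNAs, miR-143-3p and miR-145-5p, summed to 237 to 477 CPM in hiPSC-EV, 2190 to 4448 in CPC-EV, 33386 to 60722 in CMi-EV and 132616 to 205097 in CMm-EV, with neither at 0. Nearly all of this sum was miR-143-3p. miR-145-5p was at 4.37 to 39.4 CPM in hiPSC-EV, 79.1 to 138 in CPC-EV, 515 to 563 in CMi-EV and 617 to 807 in CMm-EV. Of 10 skeletal muscle transcripts, MYOD1, MYOG, MYF5 and TNNT3 had no row in the table of transcript fragments, and the 6 others summed to 1.20 to 45.5 per 1e+06 fragments in hiPSC-EV, 0 to 61.1 in CPC-EV, 31.9 to 171 in CMi-EV and 0 to 168 in CMm-EV. The 1 that passed the filter, the embryonic myosin gene MYH3, was at 18.3 to 62.0 in CMi-EV. It passed only through that group and was not called without the filter. The 4 smooth muscle transcripts summed to 12.0 to 130 in hiPSC-EV, 0 to 81.0 in CPC-EV, 0 to 142 in CMi-EV and 0 to 639 in CMm-EV. None of them passed the filter. The part of these markers in the results on myomiRs was not tested.

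hsa-miR-1-3p was the most abundant myomiR in each of the 12 libraries, and its level was separated between hiPSC-EV, CPC-EV and the cardiomyocyte EV by more than the spread between replicates. In hiPSC-EV it was 34.8, 33.8 and 61.8 CPM in replicates 1, 2 and 3. In CPC-EV it was 651, 773 and 1313 CPM. The lowest CPC-EV library was thus above the highest hiPSC-EV library. CMi-EV held 49586, 72062 and 17343 CPM of miR-1-3p, and CMm-EV held 31653, 47078 and 203320 CPM. All 6 cardiomyocyte libraries lay above the CPC-EV libraries, while CMi-EV and CMm-EV overlapped. The means were ordered by the day of differentiation (43.5 ± 15.9, 912 ± 352, 46330 ± 27505 and 94017 ± 94972 CPM, SD, n = 3), but the last 2 neighbours did not differ beyond their spread, and without CMm-EV replicate 3 the CMm-EV mean was 39366 CPM, below that of CMi-EV. By rank, miR-1-3p moved from place 209 to 242 among the miRNAs of the hiPSC-EV libraries to 42 to 59 in CPC-EV, 3 to 11 in CMi-EV and 5 to 8 in CMm-EV. Its share of all miRNA counts reached 8.14% in CMi-EV replicate 2 and 10.2% in CMm-EV replicate 3.

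**Figure D1:**
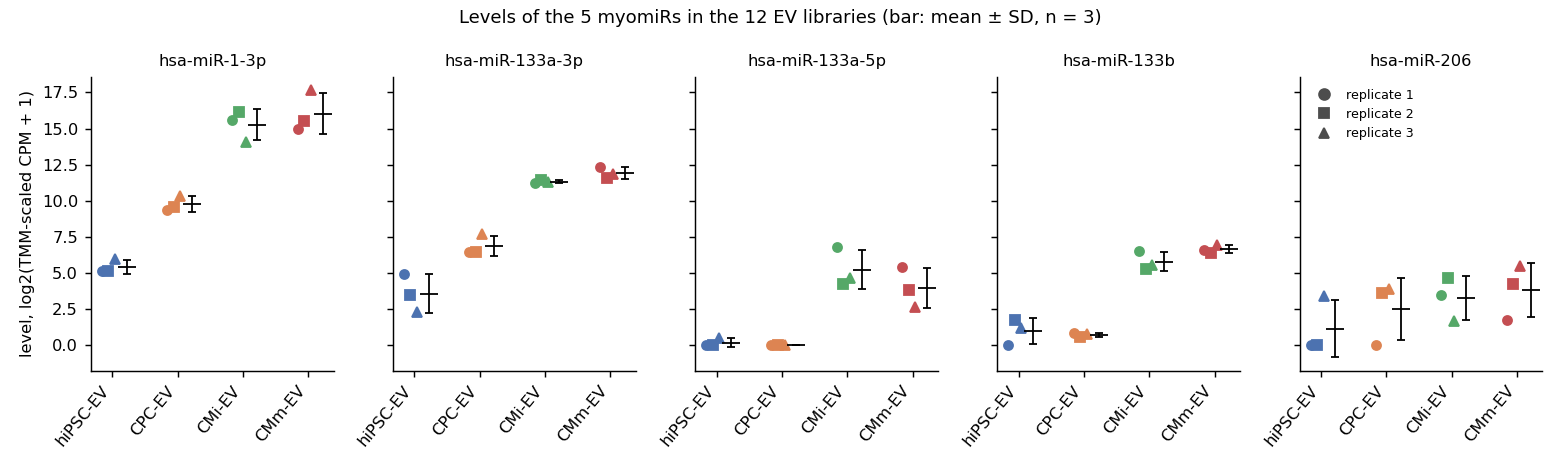
Level of each myomiR as log2(TMM-scaled CPM + 1) in the 12 EV libraries, one panel per member, with replicates as symbols and the black bar as mean ± SD (n = 3). hsa-miR-1-3p and hsa-miR-133a-3p stepped up at CPC-EV and again at CMi-EV, hsa-miR-133a-5p and hsa-miR-133b stood apart only in the cardiomyocyte EV, and the 4 groups of hsa-miR-206 overlapped.

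hsa-miR-133a-3p, the guide strand of miR-133a, followed the same order at a lower level. Replicates 1, 2 and 3 of hiPSC-EV held 30.2, 10.3 and 3.84 CPM, which rested on only 18.5 to 26 expected counts each. The CPC-EV replicates held 87.9, 84.8 and 206 CPM. In CMi-EV the values were 2428, 2831 and 2484 CPM, the tightest group of this member, and in CMm-EV they were 5248, 3033 and 3746 CPM. With TMM factors taken over all 12 libraries, no CMm-EV library fell within the CMi-EV range and the 4 groups did not overlap. With TMM factors from these 2 groups alone, CMi-EV and CMm-EV overlapped, and 2 CMm-EV libraries lay above all CMi-EV libraries. On library totals alone CMi-EV (2513 to 3197 CPM) lay inside the range of CMm-EV (1823 to 4388 CPM). The group means were 14.8 ± 13.7, 126 ± 69.1, 2581 ± 218 and 4009 ± 1131 CPM (SD, n = 3).

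hsa-miR-133b was near or below the floor of detection outside the cardiomyocyte EV. In hiPSC-EV it was 0, 2.38 and 1.28 CPM and in CPC-EV 0.767, 0.496 and 0.744 CPM, with at most 6.5 expected counts in a library. CMi-EV held 91.7, 37.8 and 45.6 CPM, and CMm-EV held 94.7, 82.2 and 121 CPM. The 6 cardiomyocyte libraries were all above the 6 earlier ones, CMi-EV replicate 1 lay inside the range of CMm-EV, and hiPSC-EV and CPC-EV overlapped. The means of CMi-EV and CMm-EV were 58.4 ± 29.1 and 99.2 ± 19.6 CPM (SD, n = 3).

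The passenger strand hsa-miR-133a-5p was not counted in any CPC-EV library and was counted in 1 of 3 hiPSC-EV libraries, with 2 counts (0.426 CPM in replicate 3). In CMi-EV it was 108, 17.9 and 24.6 CPM and in CMm-EV 41.3, 13.0 and 5.13 CPM. CMi-EV replicate 1 was the highest library, and the 2 cardiomyocyte groups overlapped. Pooled over replicates, CMi-EV held 314 counts against 2 in hiPSC-EV, a ratio after scaling of 228 (95% exact interval 62.6 to 1892), and CMm-EV held 96 counts, a ratio of 54.3 (14.6 to 455). CMi-EV replicate 1 supplied 246 of the 314 counts, and without it the ratio was 83.5 (22.2 to 704). These intervals cover counting error only.

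hsa-miR-206 was low in every group. It was 0, 0 and 9.81 CPM in hiPSC-EV and 0, 11.2 and 13.8 CPM in CPC-EV. It was 10.1, 24.2 and 2.17 CPM in CMi-EV and 2.43, 17.8 and 44.2 CPM in CMm-EV. High and low libraries occurred within each group, and the ranges of all 4 groups overlapped. The means were 3.27 ± 5.66 CPM in hiPSC-EV and then 8.30 ± 7.31, 12.2 ± 11.1 and 21.5 ± 21.1 CPM (SD, n = 3), each step being smaller than the spread within the groups. No library held more than 112 counts of miR-206, and it did not pass the expression filter of 5 CPM in each replicate of a group.

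The levels over the 4 groups were first compared together. Of 367 miRNAs that passed the filter, 50.7% were called in edgeR's quasi-likelihood F-test at a false discovery rate (FDR) of 0.05, and all 4 myomiRs that passed were among them, with FDR of 7.25e-06 for hsa-miR-1-3p, 9.75e-06 for hsa-miR-133a-3p, 8.10e-04 for hsa-miR-133b and 0.00395 for hsa-miR-133a-5p. hsa-miR-1-3p passed the filter in every group. hsa-miR-133a-3p failed it in hiPSC-EV, and hsa-miR-133a-5p and hsa-miR-133b passed only through cardiomyocyte EV, in which they were high, so their calls are not independent of the filter. An exact permutation test of log2(CPM + 1) over all 15400 divisions of the libraries into 4 groups needs no such filter. This exact permutation test gave p = 3.90e-04 for miR-1-3p, 6.49e-05 for miR-133a-3p (the smallest p these divisions can give), 0.00162 for miR-133b and 0.00260 for miR-133a-5p. For miR-206 the exact permutation p was 0.390. On library totals alone, an alternative chosen after seeing the data, the exact permutation p of miR-133a-3p was 5.19e-04, so its place at the smallest p depends on the scaling.

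The first step asked which myomiRs differed between EV of cardiac progenitors and of hiPSC. hsa-miR-1-3p was higher in CPC-EV by a log2 fold change of 4.82 (SE 0.39, FDR 4.82e-04, edgeR) and hsa-miR-133a-3p by 3.52 (SE 0.88, FDR 0.0303, edgeR). Of the 338 miRNAs tested, 11.5% were called higher, and their median log2 fold change was -0.27. miR-133a-3p passed the filter only through CPC-EV, in which it was high, so the 2 calls are not read against that share. The 3 other members did not pass the filter in either group. The call of miR-133a-3p was not stable. Without hiPSC-EV replicate 2, hiPSC-EV replicate 3 or CPC-EV replicate 3, its log2 fold change was 3.26, 3.02 and 3.01 and its edgeR FDR 0.103, 0.0578 and 0.0726. Without hiPSC-EV replicate 1 it was 4.64 (edgeR FDR 0.0183).

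Between day 6 and day 15, each of the 4 myomiRs that passed the filter was called higher in CMi-EV than in CPC-EV. Of the 292 miRNAs tested, 14.4% were called higher (median log2 fold change -0.05). hsa-miR-133a-5p and hsa-miR-133b passed only through CMi-EV, in which they were high, so the count is not read against that share. hsa-miR-1-3p rose by 5.67 (SE 0.53, FDR 0.00107, edgeR) on the log2 scale. hsa-miR-133a-3p rose by 4.34 (SE 0.37, FDR 5.32e-04, edgeR) and hsa-miR-133b by 6.37 (SE 0.90, FDR 0.00393, edgeR). hsa-miR-133a-5p, with no count in CPC-EV, was at least 51.4-fold higher in CMi-EV, taking 3 counts in each CPC-EV library as the floor (edgeR FDR 0.0137). This bound rests on CMi-EV replicate 1, without which it was 19.9-fold. In the edgeR fits these calls were kept when each of the 6 libraries was left out in turn. With the replicate number as a block, the call of miR-133a-5p was lost (log2 fold change 9.57, edgeR FDR 0.0653).

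Between day 15 and day 35, 0 of the 4 myomiRs tested were called, against 6.48% of 247 miRNAs called higher and 10.1% called lower (median log2 fold change -0.30). With the TMM scaling and the filter, edgeR gave none of the 4 an unadjusted p under 0.05. There was 1 such member with DESeq2 and, in edgeR, with median-of-ratios factors, without the filter or without CMm-EV replicate 2, and none was called in these fits. The log2 fold change of CMm-EV over CMi-EV was 0.89 for hsa-miR-1-3p (95% interval -0.99 to 2.78, edgeR FDR 0.481), 0.46 for hsa-miR-133a-3p (-0.03 to 0.96, FDR 0.206), 0.60 for hsa-miR-133b (-0.95 to 2.15, FDR 0.559) and -1.58 for hsa-miR-133a-5p (-4.17 to 1.01, FDR 0.393). The intervals of miR-1-3p, miR-133b and miR-133a-5p include a 2-fold difference, while that of miR-133a-3p ended just below 2-fold. With library totals alone as the scaling, the median of all miRNAs was -0.91 and the values were 0.05 for miR-1-3p, -0.03 for miR-133a-3p and 0.03 for miR-133b, so that the direction of miR-133a-3p turned. One library decided the direction for miR-1-3p, because without CMm-EV replicate 3 the log2 fold change was -0.42 (edgeR FDR 0.674). Single libraries also moved the sizes of 2 other members. miR-133a-5p was at -0.14 without CMi-EV replicate 1 and -2.58 without CMm-EV replicate 1. miR-133b was at 1.20 without CMi-EV replicate 1 and 0.31 without CMi-EV replicate 2.

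Over the whole course, from day 0 to day 35, the 3 myomiRs that passed the filter were called higher in CMm-EV than in hiPSC-EV. Of the 336 miRNAs tested, 16.1% were called higher, but hsa-miR-133a-3p and hsa-miR-133b passed only through CMm-EV, in which they were high, and the count is not read against that share. Neither hsa-miR-133a-5p nor hsa-miR-206 passed. The log2 fold change was 10.70 for hsa-miR-1-3p (SE 0.69, FDR 2.68e-04, edgeR), 7.95 for hsa-miR-133a-3p (SE 0.65, FDR 3.96e-04, edgeR) and 5.80 for hsa-miR-133b (SE 0.91, FDR 0.00275, edgeR). Single libraries moved these sizes, and the 3 calls were kept. Without CMm-EV replicate 3 the number of members called was 4. miR-1-3p was at 9.66 without CMm-EV replicate 3, 11.46 without CMm-EV replicate 1 and 11.37 without CMm-EV replicate 2, miR-133a-3p at 8.97 without hiPSC-EV replicate 1, and miR-133b at 6.48 without hiPSC-EV replicate 2. The median over all tested miRNAs was -1.53 on the same scale, so these values stand relative to a population of miRNAs that fell. With library totals alone as the scaling, the median was -1.97 and the values of the 3 members were 10.25, 7.48 and 5.55.

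**Figure D2:**
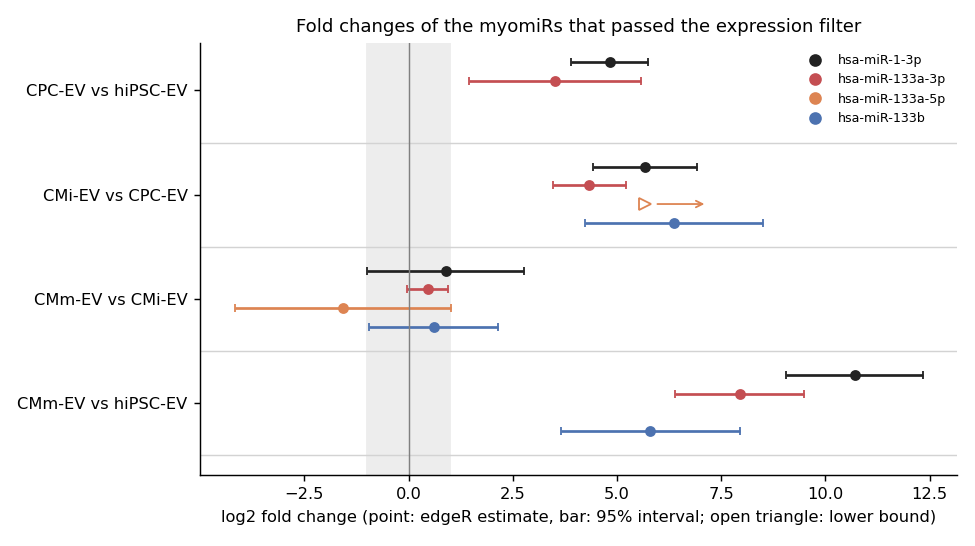
Log2 fold change with its 95% interval (edgeR, 3 against 3 libraries) for each myomiR that passed the filter in the 4 comparisons. The open triangle is the lower bound for hsa-miR-133a-5p, which had no count in CPC-EV, and the grey band covers changes below 2-fold. All intervals of CMm-EV against CMi-EV cross 0, and those of the 3 other comparisons do not.

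The libraries of one group differed more in miR-1-3p than in miR-133a-3p once cardiomyocytes were present. On the log2 scale the SD between replicates was 1.07 in CMi-EV and 1.41 in CMm-EV for hsa-miR-1-3p, but 0.12 and 0.40 for hsa-miR-133a-3p, beside medians of 0.57 and 0.56 over the 367 expressed miRNAs. Of these miRNAs, 65.7% in CMi-EV and 70.0% in CMm-EV had a smaller SD than miR-1-3p. The earlier groups had the opposite order, with 0.48 in hiPSC-EV and 0.53 in CPC-EV for miR-1-3p against 1.35 and 0.72 for miR-133a-3p. CMm-EV replicate 3 lay 1.60 above its group mean in miR-1-3p and -0.06 from it in miR-133a-3p. CMi-EV replicate 3 was 1.19 below its group mean in miR-1-3p (-1.19) and close to it in miR-133a-3p (-0.05). The difference in spread between the 2 members was not tested.

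**Figure D3:**
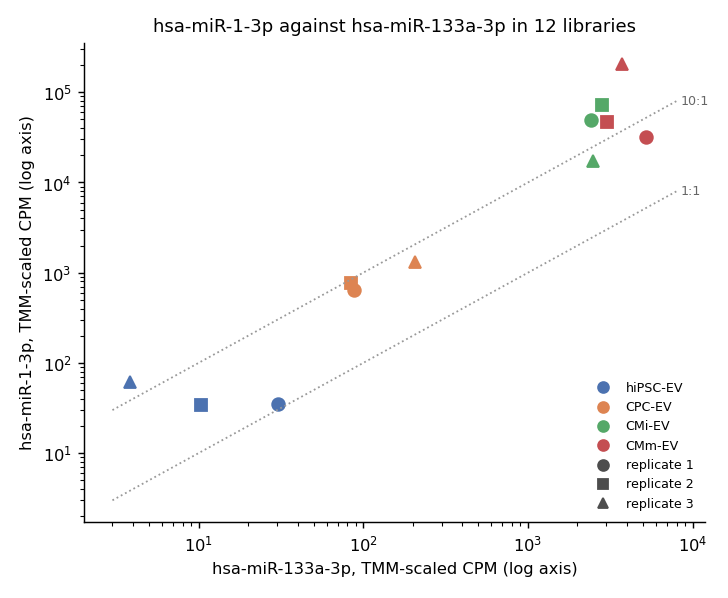
hsa-miR-1-3p against hsa-miR-133a-3p in each library, both in TMM-scaled CPM on log axes, with dotted lines at ratios of 1 and 10. The 6 cardiomyocyte libraries spread vertically (17343 to 203320 CPM of miR-1-3p) over a narrow range of miR-133a-3p (2428 to 5248 CPM).

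The ratios between 4 pairs of members were compared, each formed from counts with 0.5 added and tested by exact permutation over the 15400 divisions, with p-values adjusted over the 4 ratios. Scaling between libraries cancels in them. The ratio of hsa-miR-1-3p to hsa-miR-133a-3p was 1.15, 3.23 and 15.7 in hiPSC-EV and 7.40, 9.10 and 6.37 in CPC-EV. It was 20.4, 25.5 and 6.98 in CMi-EV and 6.03, 15.5 and 54.3 in CMm-EV. The groups overlapped, and no difference between them was detected (adjusted p = 0.253, exact permutation test), although without hiPSC-EV replicate 3 the adjusted p was 0.0495. Among the seed partners, hsa-miR-133b amounted to 1.34 to 3.79% of hsa-miR-133a-3p in CMi-EV and 1.82 to 3.23% in CMm-EV, against 0.451 to 1.09% in CPC-EV, so the cardiomyocyte libraries all lay above the CPC-EV libraries. In hiPSC-EV the share was 1.89 to 35.1% and rested on 18.5 to 26 counts of miR-133a-3p, and its lowest value comes from a library with no count of miR-133b and is set by the 0.5 added. Each CPC-EV share rests on 2 counts of miR-133b after rounding. The adjusted p was 0.0474 (exact permutation test), and it was above 0.05 in 10 of the 12 tests that left out 1 library (up to 0.104, without CPC-EV replicate 3).

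The passenger to guide ratio of miR-133a, hsa-miR-133a-5p to hsa-miR-133a-3p, was 0.640 to 4.48% in CMi-EV and 0.142 to 0.798% in CMm-EV. The 2 groups overlapped between 0.640% in CMi-EV replicate 2 and 0.798% in CMm-EV replicate 1. Over the 4 groups the adjusted p was 0.0288 (exact permutation test), but hiPSC-EV and CPC-EV entered it almost entirely through the 0.5 added to counts of 0. Of these 2 groups only hiPSC-EV replicate 3 held a count, so a test without the libraries at 0 cannot decide the difference. Without CPC-EV replicate 3 the adjusted p was 0.0648. hsa-miR-206 stood at 0.585 to 16.0% of hsa-miR-1-3p in hiPSC-EV, 0.0295 to 1.46% in CPC-EV, 0.0146 to 0.0339% in CMi-EV and 0.00959 to 0.0380% in CMm-EV (adjusted p = 0.0288, exact permutation test). The lowest values in hiPSC-EV and CPC-EV come from libraries with no count of miR-206 and are set by the 0.5 added. Leaving out the libraries at 0 keeps only replicate 3 of hiPSC-EV, so such a test cannot decide the difference. As plain counts, the cardiomyocyte libraries held 2650 to 13034 counts of miR-1-3p for each count of its seed partner. Without hiPSC-EV replicate 1 or CPC-EV replicate 3 this adjusted p was 0.0520 and 0.0648. For any pair of groups, 3 libraries against 3 cannot give an exact two-sided p below 0.10.

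**Figure D4:**
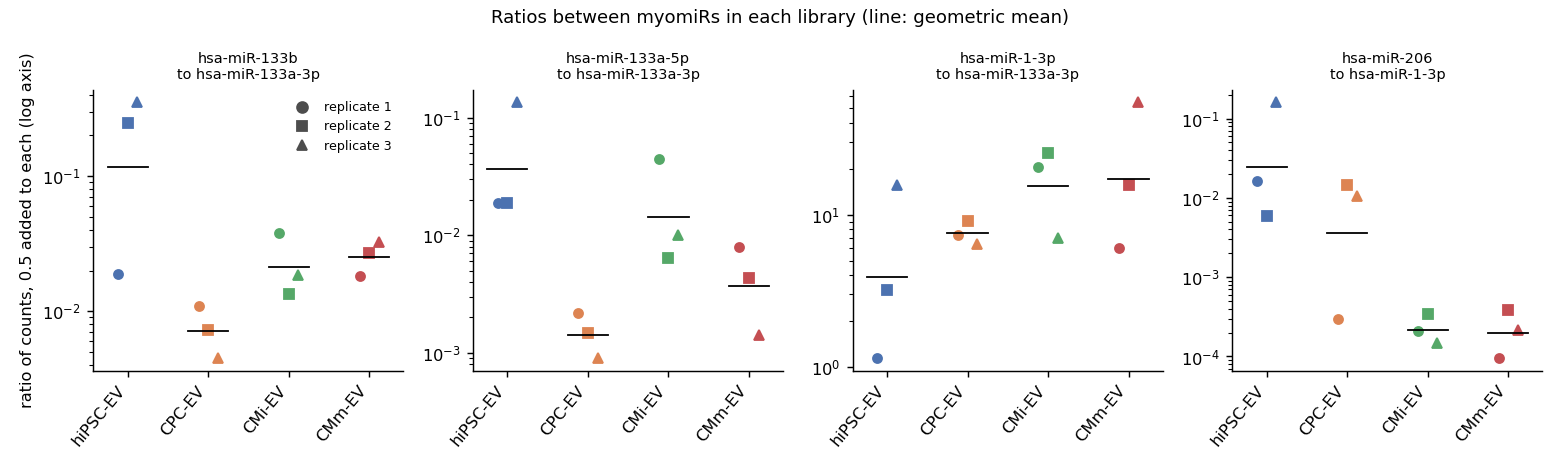
Ratios between myomiRs in each library on log axes (counts with 0.5 added to both), with replicates as symbols and the line as the geometric mean of a group. hsa-miR-133b to hsa-miR-133a-3p was lowest in CPC-EV, and the groups overlapped for hsa-miR-1-3p to hsa-miR-133a-3p. For hsa-miR-206 to hsa-miR-1-3p the CPC-EV library with no count of miR-206 (0.0295%, set by the 0.5 added) lay within the range of the cardiomyocyte EV.

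The 5 members together made up 0.00466 to 0.00796% of all miRNA counts in hiPSC-EV, 0.104 to 0.268% in CPC-EV, 2.01 to 8.47% in CMi-EV and 3.02 to 10.4% in CMm-EV. miR-1-3p alone supplied 53.6 to 98.1% of these counts.

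Among 13 other muscle miRNAs in the table (of 14 listed), 3 were called higher and 2 lower of 6 tested in CPC-EV against hiPSC-EV, beside 11.5% higher and 16.0% lower of all miRNAs. In CMi-EV against CPC-EV, 9 were higher and none lower of 10 tested, beside 14.4% and 14.0%. In CMm-EV against CMi-EV, where no myomiR was called, 3 of 12 were higher and none lower, beside 6.48% and 10.1%. These were hsa-miR-143-3p (log2 fold change 1.82, edgeR FDR 0.0125) and hsa-miR-143-5p (1.03, FDR 0.0272), both of the smooth muscle-enriched miR-143, and hsa-miR-378a-3p (1.47, FDR 0.0160), which lies in an intron of PPARGC1B, a coactivator gene of mitochondrial metabolism. In CMm-EV against hiPSC-EV, 10 of 12 were higher and 1, miR-486-5p, was lower, beside 16.1% and 37.5%. Many of these miRNAs were near 0 in the earlier group and passed the filter only where they were high. hsa-miR-208b-3p and hsa-miR-499a-5p, which lie in introns of the myosin heavy chain genes MYH7 and MYH7B, had no count in CPC-EV, in which miR-1-3p averaged 912 CPM. In CMm-EV they averaged 92.5 ± 21.1 and 368 ± 110 CPM (SD, n = 3). Their log2 fold changes between CMm-EV and CMi-EV, 2.77 and 3.22, were not called (edgeR FDR 0.388 and 0.236).

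**Figure D5:**
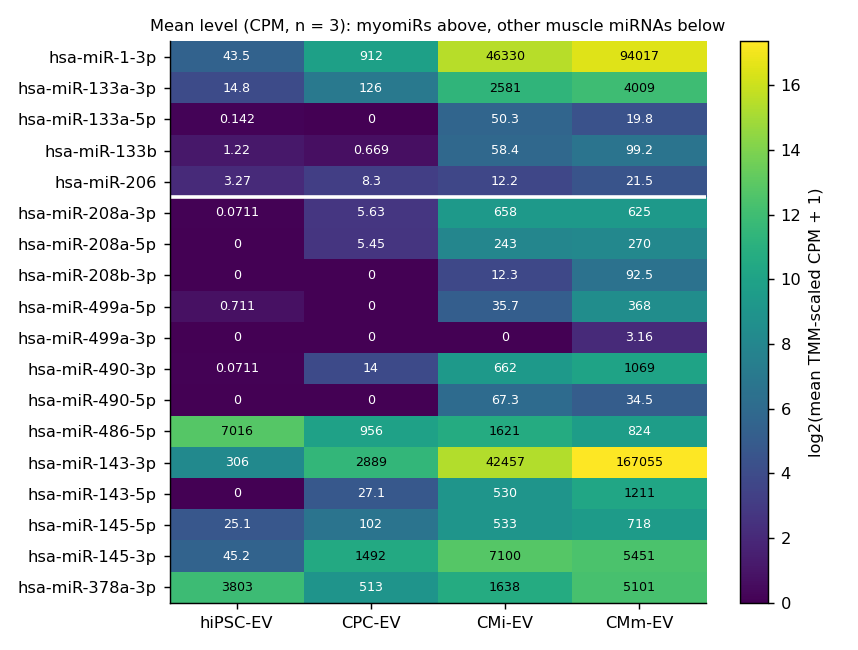
Mean TMM-scaled CPM of the 5 myomiRs (above the white line) and of 13 other muscle miRNAs in the 4 EV groups (n = 3), with colour as log2(mean + 1) and the printed number as the mean. hsa-miR-1-3p stood at 43.5 CPM in hiPSC-EV and 94017 in CMm-EV (39366 without CMm-EV replicate 3) and hsa-miR-143-3p at 306 and 167055 CPM, while hsa-miR-206 stayed below 22 CPM.

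The pattern of hsa-miR-1-3p over the 12 libraries was most like that of hsa-miR-99a-5p (Pearson r of log2(CPM + 1) = 0.985), hsa-miR-143-5p (0.978) and hsa-miR-143-3p (0.973) among the 367 expressed miRNAs, with hsa-miR-133a-3p in place 5 (0.964), hsa-miR-133b in place 20 (0.900) and hsa-miR-133a-5p in place 29 (0.805). For hsa-miR-133a-3p the nearest were hsa-miR-143-5p (0.979), hsa-miR-99a-5p (0.978) and hsa-miR-125b-5p (0.968). These coefficients describe 12 libraries in 4 groups, which share depth, scaling and stage, and mostly reflect the differences between group means.

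Fragments of longer transcripts in the same libraries were sparse, with 131423 to 1908539 counts assigned to annotated transcripts. Regulators of the myomiR genes were examined as 11 listed genes, of which 8 had a row and 5 passed the filter. By edgeR's F-test 4 of these were called, beside 26.2% of 2814 transcripts tested. All 4 were at 0 in hiPSC-EV and passed the filter only through groups in which they were high, so the count is not read against that share. Fragment totals differed between groups, and values are therefore given per 1e+06 fragments assigned in the library. MYOCD, which encodes the SRF coactivator myocardin, had 168, 81.4 and 206 per 1e+06 in CPC-EV, 393, 344 and 329 in CMi-EV, 0, 0 and 98.7 in CMm-EV while hiPSC-EV had none (edgeR FDR 0.0271). MEF2C had 1.25 to 42.6 in CPC-EV and 54.8 to 141 in CMi-EV and none in the 2 other groups (edgeR FDR 0.0371). GATA4 had 34.1 to 63.2 in CPC-EV, 33.7 to 196 in CMi-EV, 0 to 30.6 in CMm-EV while hiPSC-EV had none (edgeR FDR 0.0444). HAND2, a regulator of the developing heart and a reported target of miR-1, had 49.9, 205 and 54.5 per 1e+06 in CPC-EV, 0, 2.00 and 4.56 in CMi-EV, and 563, 168 and 57.9 in CMm-EV, with none in hiPSC-EV (edgeR FDR 0.0135). MEF2A, the listed gene that passed the filter and was not called, had 15.7, 0 and 0 in CMi-EV and 7.61, 226 and 20.4 in CMm-EV (edgeR FDR 0.304). Without the expression filter 1 regulator was called.

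Of 21 reported targets of miR-1 or miR-133, 18 had a row and 8 passed the filter in CMm-EV against hiPSC-EV, where 1 was called higher (HAND2) and 2 lower, beside 52.0% of 1911 transcripts called in either direction. In the F-test over the 4 groups, 2 of 9 tested targets were called, beside 26.2% of 2814 transcripts. The transcript of CCND1, which encodes the G1 cyclin D1, had 81.3, 32.4 and 9.96 per 1e+06 fragments in hiPSC-EV and none in CMm-EV (edgeR FDR 0.00899). Between these ends it had 44.9, 0 and 19.1 in CPC-EV and 71.8, 0 and 196 in CMi-EV, so that its highest library was of CMi-EV, and the F-test over the 4 groups did not call it (edgeR FDR 0.143). NELFA, a subunit of the negative elongation factor, had 58.5, 6.01 and 7.86 per 1e+06 in hiPSC-EV and 0, 3.10 and 0 in CMm-EV (edgeR FDR 0.0150), with none in CPC-EV and 2.24, 0 and 41.1 in CMi-EV. These 3 targets were at or near 0 in one of the groups and passed the filter through the other. On counts simulated for CPC-EV against hiPSC-EV, most transcript calls between 2 groups were false. CMm-EV against hiPSC-EV was not simulated, and these calls and that of MIB1 below are read as weak. Without the filter 1 target was called. Of the host and neighbouring genes, MIB1 had up to 46.8 per 1e+06 in hiPSC-EV, 84.8, 1.52 and 0 in CPC-EV, 146, 166 and 0 in CMi-EV and none in CMm-EV. It was called lower in CMm-EV than in hiPSC-EV (edgeR FDR 0.00899) but not without the filter, and not in the F-test over the 4 groups (edgeR FDR 0.136).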

How the data were processed

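EV were separated by the authors from conditioned medium on density gradients, and small RNA libraries were sequenced and processed with exceRpt (hg38, miRBase annotation). The deposited tables hold expected counts of miRNAs and of annotated transcripts, in which reads with several matches are divided, and RPM scaled by the authors. Their total was not the miRNA total used here. In hiPSC-EV replicate 1, miR-1-3p was at 19.8 RPM and at 42.6 CPM on the miRNA total alone. The labels also name edgeR 3.24.0. Here expected counts were rounded, and transcript rows were summed per gene symbol. miRNAs with at least 5 CPM in each of 3 replicates of a compared group were tested with edgeR 4.0.16 (TMM, quasi-likelihood, Benjamini-Hochberg) and called at FDR 0.05 with an absolute log2 fold change of 1 or more, or FDR alone in the F-test. Ratios and levels were tested by exact permutation. P-values measure the spread between 3 cultures. Library depth was 703415 to 6272455 miRNA counts. On counts simulated for CPC-EV against hiPSC-EV, the miRNA fit recovered most changed miRNAs with few false calls. There the transcript fit recovered few changed transcripts, and most of its calls between 2 groups were false. The other comparisons between 2 groups were not simulated, and calls of transcripts are read as weak. The named genes were the members, marker genes, some of the listed genes, called or not, and the 3 miRNAs most like the 2 members tested in every comparison. Members and lists were chosen with earlier results of these data known. Alternatives used DESeq2 1.42.0, limma 3.58.1 on RPM, other scalings and filters, replicate blocks and leaving out each library. Other deposited files (other RNA classes and read statistics) were not used here.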

Additional observations from a re-analysis of the deposited data

Results flagged for a closer look

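Fragments of the host lncRNAs lay outside the main measurement and were counted in few libraries. MIR1-1HG, in which MIR1-1 and MIR133A2 lie, had 18 fragment counts in CPC-EV replicate 1 and 1 in CMm-EV replicate 3, and 0 in the 10 others. MIR133A1HG, which overlaps MIR133A1 and MIR1-2, had 58 fragment counts in CMi-EV replicate 1 and 0 in the 11 others. Neither had a count in hiPSC-EV, and neither passed the expression filter, so no difference between groups was tested.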

How the results depend on the processing

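Of 231 alternative values of the members' fold changes, 224 kept direction and side of the threshold. No pairing by replicate number was seen (correlations of same-numbered deviations -0.12 to 0.10). The closest library of another group had the same number in 12 of 36 cases, and throughout for 0 of 12 libraries. Whether same-numbered libraries shared a culture run cannot be told from these values. With the replicate block, the calls of miR-133a-3p in CPC-EV against hiPSC-EV (log2 fold change 3.76, FDR 0.116, leaving 1 member called) and of miR-133a-5p in CMi-EV against CPC-EV (9.57, FDR 0.0653) were lost, and the block called 1 target in the F-test. Leaving out 1 library each gave miR-133a-3p 3.01 to 4.64 in the first comparison, with 1 to 2 members called, and miR-1-3p -0.42 to 1.32 in CMm-EV against CMi-EV. In that comparison, library totals alone gave miR-133a-3p -0.031, and no filter gave miR-1-3p an FDR of 0.00185 at a log2 fold change of 0.86, under the fold threshold. Adjusted p-values ranged from 0.00234 to 0.104 for miR-133b to miR-133a-3p, 0.0122 to 0.0648 for miR-133a-5p to miR-133a-3p, 0.0495 (without hiPSC-EV replicate 3) to 0.502 for miR-1-3p to miR-133a-3p and 0.0226 to 0.0648 for miR-206 to miR-1-3p. Without a pseudocount, libraries at 0 were dropped, and so were groups left with 1 library or none. The second ratio was then compared only between CMi-EV and CMm-EV (adjusted p 0.262, exact permutation test), where p cannot fall below 0.10. The last was compared without hiPSC-EV (0.0714). Neither value can decide a difference over the 4 groups. For miR-206 the exact permutation p was 0.195 to 0.671, a check added after seeing the data. The lower bound, pooled ratio and means without 1 library were also added then. Called transcripts were few and moved. In the F-test, leaving out 1 library gave 1 to 4 regulators and 1 to 3 targets, no filter 1 and 0, and library totals 1 target. In CMm-EV against hiPSC-EV, leaving out 1 library gave 1 to 3 regulators and 3 to 7 targets, library totals 2 regulators, and no filter 1 target and 0 host genes. The causes were not tested. miR-206, miR-133b and miR-133a-5p had few or no counts in several hiPSC-EV and CPC-EV libraries, so their levels there are poorly resolved. The part of depth in this was not tested.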
